A study of Homo sapiens with 6 samples.

Results

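The genes described here are 41 genes of proximal tubule identity and function, taken by symbol from the gene count table of HK-2 cells: endocytic receptors, brush border enzymes, transporters, metabolic enzymes, hormone receptors and a transcription factor of the proximal tubule. The rule that chose the members used their known roles and no measured value. Of the 41 members, 37 had a row in the count table of 31831 genes and 26 had enough counts to be tested among 17142 genes. The 11 members that were in the table but not tested, and the 4 without a row (SLC22A2, SLC22A6, SLC22A8 and SLC13A1), are given below as counts or by name.

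HK-2 is an established line of human renal proximal tubular epithelial cells, and all libraries came from this 1 line. The cells were kept in 30 mM glucose for 72 h in both groups. HG-NC cells carried the control construct and HG-OE cells carried the hnRNP-F construct, which the labels list as plasmids and the methods as lentivirus. Poly(A) RNA was sequenced as 3 libraries per group. The study's text calls them biological replicates and describes parallel wells of transduced cells, so the p-values measure the spread between cultures of this kind and not between separately made lines. No library of normal glucose or of primary tubule cells was analysed here, so the levels below describe HK-2 cells in high glucose and not the tubule.

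The proximal tubule takes back most of what the glomerulus filters. Its cells carry a dense brush border on the luminal side, where cotransporters, the sodium-proton exchanger and ectoenzymes are held, and the endocytic receptors megalin and cubilin recover filtered protein there. On the basolateral side, bicarbonate leaves through a sodium cotransporter and organic anions and cations enter for secretion, while the cell makes glucose and oxidizes fatty acids. The nuclear receptor HNF4A is a known regulator of many of these genes in the kidney and liver.

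Library totals were 25507595 to 27888212 counted read pairs in HG-NC and 28977783 to 29444841 in HG-OE. HNRNPF, the gene of hnRNP-F, was at 311.2 ± 7.23 CPM (counts scaled to library size, here by TMM) in HG-NC and rose to 435.2 ± 14.9 CPM in HG-OE (mean ± SD, as below, n = 3 libraries per group). The log2 fold change was 0.48 with a standard error (SE) of 0.0388, or 1.4-fold, and the adjusted p was 2.80e-07. All adjusted p-values are from the quasi-likelihood test of edgeR, adjusted by Benjamini-Hochberg for all genes tested. The gene count does not separate the construct from the cell's own gene. HG-OE replicate 3 stood apart from the other libraries: 24 hepatocyte markers summed to 913.5 CPM there, while the first 2 HG-OE libraries gave 470.6 and 471.5 and HG-NC gave 280 to 290.6. For this reason, values without HG-OE replicate 3 are given beside each member whose call or direction they change.

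Of 10 renal epithelial markers, 9 or 10 had at least 10 counts in each library, at unequal levels. CDH1, a cadherin gene, had 384 counts in HG-OE replicate 3 and 2 to 10 in the others, and PAX2 had 53 to 88. PAX8, a renal lineage transcription factor, was read at 11953 to 18291 counts. Among markers of other nephron segments, UMOD, PVALB, AQP2, SLC4A1 and FOXI1 had no row in the count table and SLC12A1 had at most 1 count in any library. CLDN16, a claudin of the thick ascending limb, and PODXL, the podocyte sialomucin, were expressed, at 1.37 to 1.80 and 1.10 to 2.13 FPKM over the 6 libraries. All 17 markers summed to 18.4 to 20 CPM in HG-NC and 24.5 to 27.1 in HG-OE.

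In HG-NC, 15 of the 41 members were expressed, taken as a mean of at least 1 FPKM, the authors' count scaled to gene length and library size, which allows levels to be compared between genes. A further 9 were low (0.1 to 1 FPKM), 13 were near 0 (under 0.1 FPKM) and 4 had no row. Across all genes with an FPKM value, 12055 of 31643 (38.1%) reached 1 FPKM, and among protein-coding genes it was 10815 of 17421 (62.1%). The most abundant member was SLC16A1, a monocarboxylate carrier, at 47.8 FPKM, followed by carbonic anhydrase CA2 at 40.8 FPKM. Next came the phosphate carrier SLC20A1 at 24.3 FPKM, the brush border scaffold gene SLC9A3R1 at 20.9 FPKM, MIOX at 14.1 FPKM and ABCB1 at 10.4 FPKM. The remaining expressed members, SLC22A4, ABCC4, DAB2, DPP4, SLC4A4, KL, SLC20A2, VDR and AMN, ran from 9.37 down to 1.02 FPKM. AMN lay at the limit, with values from 0.89 to 1.15 FPKM over the HG-NC libraries.

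The 13 members near 0 in HG-NC included LRP2 (megalin), CUBN (cubilin), the water channel AQP1, the apical exchanger SLC9A3, the phosphate cotransporter SLC34A3, the aminopeptidase ANPEP, the gluconeogenic enzymes PCK1 and FBP1, and HNF4A. LRP2, HNF4A, SLC47A1 and ACSM2A had no count in any HG-NC library, where a reading of 0 leaves room for as many as 3 counts. Such limits cover counting error only. Thus most roles held both expressed members and members near 0, for example DAB2 beside LRP2 among the endocytosis genes. The ABC efflux pumps had no member near 0, and HNF4A was the only transcription factor.

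**Figure D1:**
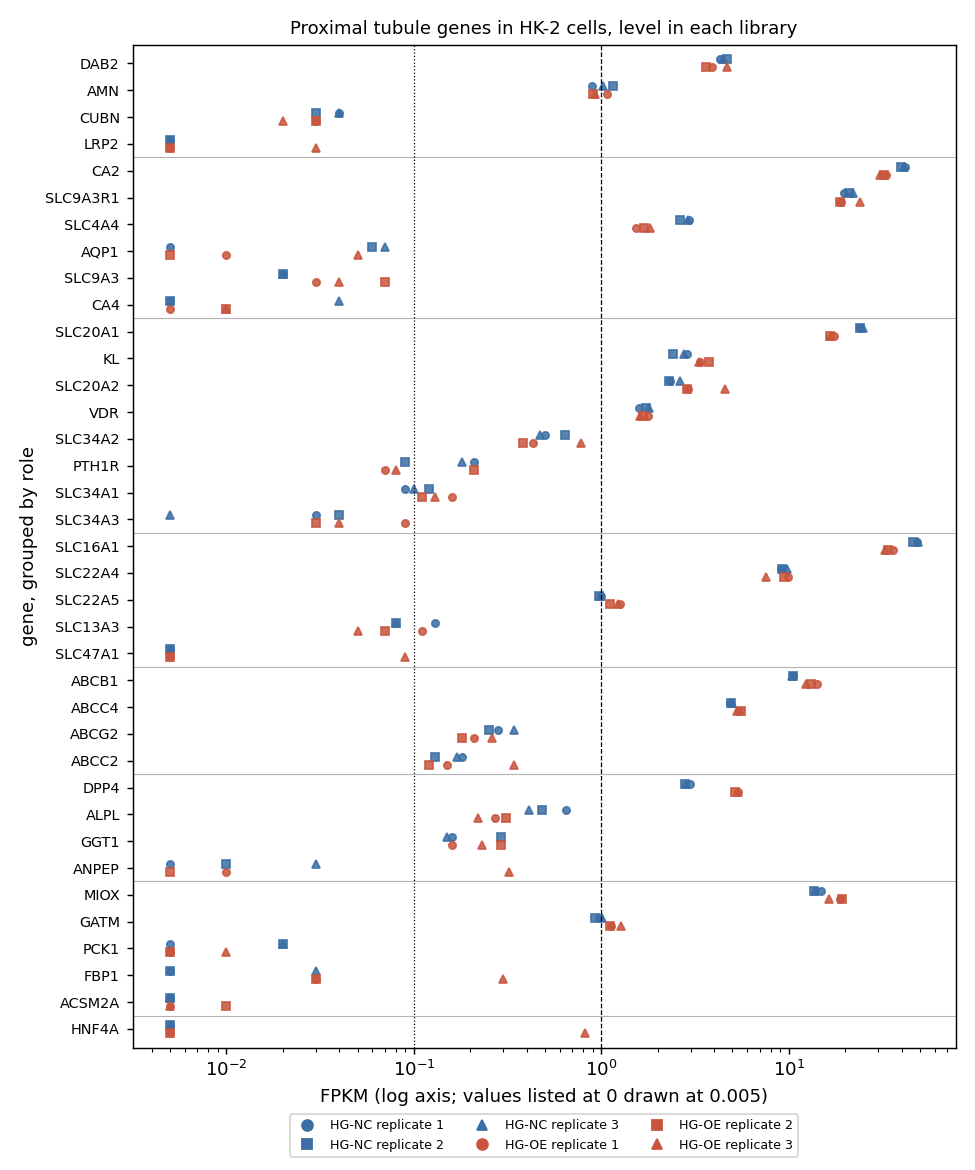
Level of each of the 37 members with a row in the table in each of the 6 libraries, in FPKM on a log axis, with values listed at 0 drawn at 0.005; members are grouped by role, and the vertical lines mark 0.1 and 1 FPKM. SLC16A1 and CA2 lie farthest right, while LRP2, SLC47A1 and HNF4A are above 0 only in HG-OE replicate 3.

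Between the groups, 13 of the 26 members tested passed the test at an adjusted p under 0.05, beside 51.8% of all genes tested. Of these, 8 members (30.8%) were higher in HG-OE, beside 25.9% of all genes, and 5 (19.2%) were lower, beside 25.9%. None of the members passed both the test and a 2-fold change in either direction, whereas 3.69% of all genes did so upward and 2.13% downward. The shares of members called were therefore near those of the whole transcriptome. Without HG-OE replicate 3, 7 members were higher and 7 lower, beside 26.7% and 27.2% of the genes then tested, since GATM lost its call and DAB2 and SLC9A3R1 gained one. The median log2 fold change of the tested members was -0.0064, beside 0.01 over all genes, and the median size of the change without its sign was 0.34, beside 0.27. The groups did not overlap for 13 of the 26 members tested, which were the 13 past the test, beside 59.0% of all genes tested. For any single member, the exact two-sided permutation test of 3 libraries against 3 cannot go below p = 0.1, and each of the 13 reached that smallest value.

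**Figure D2:**
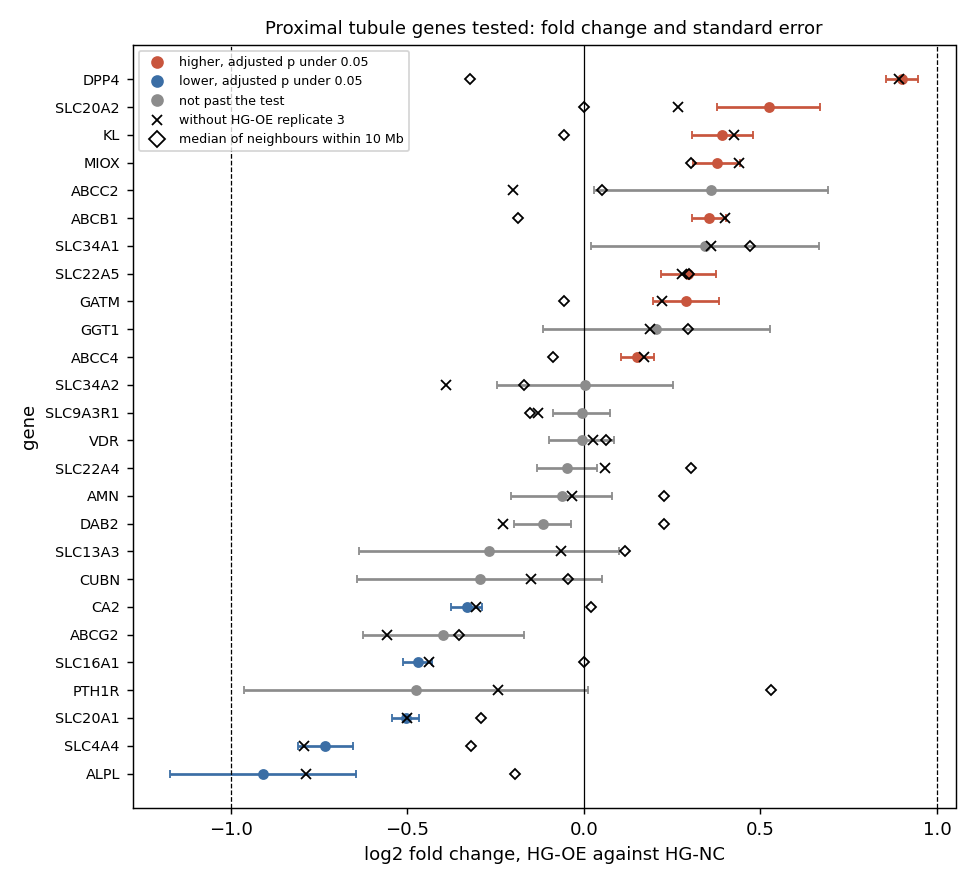
Log2 fold change of the 26 tested members, HG-OE against HG-NC, with the standard error of the edgeR fit as bars; crosses give the value without HG-OE replicate 3 and diamonds the median of well-counted genes within 10 Mb. DPP4 lies highest at 0.90 and ALPL lowest at -0.91, and no point passes the dashed lines of a 2-fold change.

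Most of the calls lay among the members with more counts. Among the 17 tested members with a mean of at least 100 counts, 12 (70.6%) passed the test, beside 61.9% of the 12365 genes at that depth. Over all genes, 8887 of the 17142 tested passed, and 7657 of these had a mean of at least 100 counts. Among the 9 members with fewer counts, only ALPL passed (11.1%). For these 9, a change of the size seen in the well-counted members was mostly not detectable at this depth, since their standard errors ran from 0.229 to 0.488 on the log2 scale.

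Of the brush border ectoenzymes, DPP4 showed the largest rise of the tested members and ALPL the largest fall. DPP4, the dipeptidyl peptidase that cleaves incretin hormones and other peptides (chromosome 2 of GRCh38, 161992245 to 162074394), was read at 1222, 1217 and 1272 counts in HG-NC and at 2524, 2452 and 2558 in HG-OE replicates 1, 2 and 3. Every HG-OE library lay far above every HG-NC library, with little spread within the groups. DPP4 rose from 46.2 ± 1.65 to 86.2 ± 1.71 CPM, a log2 fold change of 0.90 (SE 0.046, adjusted p = 5.17e-09) or 1.87-fold, and leaving out any 1 library gave 0.88 to 0.93. The 46 other well-counted genes within 10 Mb of DPP4 had a median log2 fold change of -0.32, so that relative to its neighbourhood DPP4 was 1.22 higher. An antisense-strand gene, DPP4-DT, shares 174 exon bases with DPP4, and the sources used here do not say whether counting used the strand.

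ALPL, the tissue-nonspecific alkaline phosphatase (chromosome 1, 21509397 to 21578410), had few counts: 55, 43 and 38 in HG-NC and 26, 31 and 22 in HG-OE. The groups did not overlap, yet the HG-NC libraries themselves ran from 1.36 to 2.16 CPM. ALPL fell by 0.91 on the log2 scale (SE 0.264, adjusted p = 0.0107), from 0.513 to 0.267 FPKM. Without HG-NC replicate 1 the log2 fold change was -0.70 and missed the threshold (adjusted p = 0.06). GGT1, gamma-glutamyltransferase, was read at 20 to 38 counts in HG-NC and 23 to 42 in HG-OE and did not pass the test (log2 fold change 0.21, adjusted p = 0.621). GGT1 has near-identical copies elsewhere in the genome, so its counts are uncertain. ANPEP had 0, 2 and 4 counts in HG-NC, 2 and 0 in HG-OE replicates 1 and 2, and 54 in HG-OE replicate 3.

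Of the 6 genes for water, bicarbonate and proton transport, 3 were tested and 2 were lower in HG-OE, beside 25.9% of all genes. With 3 genes tested, this share says little about the role. SLC4A4, the basolateral sodium bicarbonate cotransporter NBCe1 (chromosome 4, 71062667 to 71572087), was read at 770, 723 and 824 counts in HG-NC and at 455, 511 and 551 in HG-OE. The HG-OE libraries lay below all HG-NC libraries although they were sequenced more deeply. SLC4A4 fell by 0.73 on the log2 scale (SE 0.0784, adjusted p = 4.02e-06), from 28.8 ± 1.87 to 17.3 ± 1.58 CPM. Its 46 well-counted neighbours had a median of -0.32, and relative to these the fall was -0.41.

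CA2, the cytosolic carbonic anhydrase that makes bicarbonate and protons from CO2 (chromosome 8, 85463968 to 85481493), stood at 41.49, 39.77 and 41.05 FPKM in HG-NC and at 33.02, 32.27 and 30.81 FPKM in HG-OE. The groups were tight and separate. CA2 fell by 0.33 on the log2 scale (SE 0.0434, adjusted p = 2.43e-05), or to 0.794 of its HG-NC level, while its neighbours had a median of 0.02. SLC9A3R1, which encodes the scaffold NHERF1 that anchors brush border transporters, stood at 54.5 ± 2.72 CPM (HG-NC) and 54.3 ± 7.67 CPM (HG-OE) and did not pass the test (log2 fold change -0.0063, adjusted p = 0.954). The wide spread in HG-OE came from replicate 3, at 63.2 CPM against 49.8 and 50 in the other two. Without it, the log2 fold change was -0.13 and passed (adjusted p = 0.0442).

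AQP1 and the membrane-bound carbonic anhydrase CA4 had at most 7 and 3 counts in any library. SLC9A3, the apical exchanger NHE3, had 3, 3 and 3 counts in HG-NC and 6, 14 and 7 in HG-OE. These groups did not overlap, but SLC9A3 was too low to be tested and shares exon bases with the genes PP7080, EXOC3 and SLC9A3-AS1.

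Of the 7 phosphate genes tested, 2 were higher and 1 was lower, beside 25.9% of all genes in each direction, and 4 did not pass the test. Among the carriers, the type III carriers SLC20A1 (PiT-1) and SLC20A2 (PiT-2), which are found in most cells, were expressed, whereas the renal type II cotransporters SLC34A1 and SLC34A3 had at most 23 and 7 counts. SLC20A1 (chromosome 2, 112645939 to 112663825) was read at 3758, 4001 and 4238 counts in HG-NC and at 3128, 3001 and 3059 in HG-OE. It was lower in every HG-OE library, with little spread within either group. SLC20A1 fell by 0.50 on the log2 scale (SE 0.0388, adjusted p = 1.91e-07), from 149.1 ± 2.2 to 105.1 ± 2.43 CPM. Its 57 well-counted neighbours had a median of -0.29, which left -0.21 relative to them.

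SLC20A2 (chromosome 8, 42416475 to 42541926) was read at 422, 448 and 526 counts in HG-NC and at 607, 606 and 967 in HG-OE. All HG-OE libraries were higher, but replicate 3 lay well above the other two. The log2 fold change was 0.52 (SE 0.146, adjusted p = 0.00822), from 17.3 ± 1.3 to 24.9 ± 7.02 CPM. Without HG-OE replicate 3 it was 0.27 and still passed (adjusted p = 0.00447). Without HG-NC replicate 1 or 2 it was 0.50 and 0.49 and missed the threshold (adjusted p = 0.0524 and 0.052). The overlapping gene SMIM19 on the opposite strand shares 278 exon bases with SLC20A2.

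Of the genes for hormonal control of phosphate, KL rose. KL encodes klotho, the coreceptor for FGF23 (chromosome 13, 33016423 to 33066143), and stood at 2.85, 2.41 and 2.77 FPKM in HG-NC and at 3.34, 3.77 and 3.32 FPKM in HG-OE. The lowest HG-OE library exceeded the highest HG-NC library. The log2 fold change was 0.39 (SE 0.0874, adjusted p = 0.0019), or 1.31-fold, and was 0.42 without HG-OE replicate 3. VDR, the vitamin D receptor, was read at 257, 297 and 318 counts in HG-NC and at 327, 314 and 301 in HG-OE, with overlapping groups and a log2 fold change of -0.0064 (SE 0.092, adjusted p = 0.959). Without HG-OE replicate 3 the VDR value was 0.03 (adjusted p = 0.85). PTH1R, the parathyroid hormone receptor, had 17, 8 and 16 counts against 6, 19 and 7 (adjusted p = 0.44).

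The other phosphate carriers gave no call. SLC34A1, the main cotransporter of the renal brush border in tissue, had 12, 16 and 14 counts in HG-NC and 23, 16 and 19 in HG-OE (log2 fold change 0.34, SE 0.323, adjusted p = 0.397). SLC34A2, known from lung and intestine, had 72, 98 and 73 counts against 70, 64 and 131. Here HG-OE replicate 3 was above all other libraries while replicates 1 and 2 were below all HG-NC libraries, and the log2 fold change went from 0.0035 (adjusted p = 0.992) to -0.39 without replicate 3 (adjusted p = 0.0912).

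Of the 9 carriers for organic ions, carnitine, sulfate and carboxylates, 4 were tested. Of these, 1 rose and 1 fell, beside 25.9% of all genes in each direction. SLC16A1, the lactate and pyruvate carrier MCT1 (chromosome 1, 112911847 to 112957593), was read at 8757, 8870 and 9656 counts in HG-NC and at 7423, 7124 and 6845 in HG-OE. All HG-OE libraries were lower. SLC16A1 fell by 0.47 on the log2 scale (SE 0.0423, adjusted p = 8.03e-07), from 339.2 ± 9.96 to 244.7 ± 11 CPM, and its neighbours had a median of 0.0011. SLC16A1-AS1 on the opposite strand shares 231 exon bases with SLC16A1.

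SLC22A5, the sodium-dependent carnitine transporter OCTN2 (chromosome 5, 132369710 to 132395613), was read at 363, 377 and 400 counts in HG-NC and at 528, 470 and 523 in HG-OE. It rose by 0.30 on the log2 scale (SE 0.0782, adjusted p = 0.00601), or 1.23-fold. Yet the 108 well-counted genes within 10 Mb of it had the same median, 0.30, and relative to these the value was -0.0022. SLC22A5 was thus separate from HG-NC but not from its own neighbourhood. SLC22A4, the related transporter OCTN1 next to SLC22A5, shares these neighbours and was at 28.5 ± 1.07 CPM against 27.6 ± 3.73 CPM, with a log2 fold change of -0.05 (adjusted p = 0.668). Without HG-OE replicate 3 the SLC22A4 value was 0.06 (adjusted p = 0.47). Both genes overlap MIR3936HG on the opposite strand.

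The other carriers of this group were near 0 or without a row. SLC22A2 (OCT2), SLC22A6 (OAT1), SLC22A8 (OAT3) and the sulfate carrier SLC13A1 had no row in the table. SLC47A1, the apical efflux carrier MATE1, had 17 counts in HG-OE replicate 3 and 0 in the other 5 libraries. SLC13A3, a dicarboxylate carrier, had 22, 15 and 15 counts in HG-NC and 22, 14 and 11 in HG-OE and did not pass the test (log2 fold change -0.27, adjusted p = 0.568).

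The 4 ABC efflux pumps were all detected and tested, and the 2 expressed ones were higher, beside 25.9% of all genes. ABCB1, the multidrug pump P-glycoprotein (chromosome 7, 87503017 to 87713323), was read at 75.3, 75.7 and 74 CPM in HG-NC and at 101.4, 96.4 and 90 CPM in HG-OE. The groups were well apart. The log2 fold change was 0.36 (SE 0.0482, adjusted p = 3.39e-05), or 1.28-fold, and its 54 neighbours had a median of -0.19, which put ABCB1 0.54 above them. ABCC4, the organic anion and cyclic nucleotide pump MRP4 (chromosome 13, 95019835 to 95301475), was read at 47.2, 47.5 and 47.7 CPM in HG-NC and at 52.2, 54.5 and 51.4 CPM in HG-OE. This was the smallest rise past the test, with a log2 fold change of 0.15 (SE 0.0478, adjusted p = 0.0164), and without HG-OE replicate 2 it was 0.13 and missed the threshold (adjusted p = 0.0727).

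ABCG2 and ABCC2 were low and did not pass the test. ABCG2, the urate and xenobiotic pump, had 45, 43 and 59 counts in HG-NC and 38, 34 and 49 in HG-OE (log2 fold change -0.40, SE 0.229, adjusted p = 0.165). ABCC2, the apical pump MRP2, had 40, 31 and 42 counts against 39, 32 and 87. Replicate 3 alone was high, and without it the log2 fold change went from 0.36 (adjusted p = 0.39) to -0.20 (adjusted p = 0.567).

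Of the 5 metabolic enzymes, the 2 that could be tested were higher, beside 25.9% of all genes. MIOX, the inositol oxygenase of the renal cortex (chromosome 22, 50486784 to 50490648), was read at 755, 744 and 773 counts in HG-NC and at 1093, 1136 and 977 in HG-OE. Every HG-OE library was higher, with replicate 3 the lowest of them. MIOX rose by 0.38 on the log2 scale (SE 0.0665, adjusted p = 3.27e-04), or 1.3-fold, and by 0.44 without HG-OE replicate 3. Its 93 well-counted neighbours had a median of 0.30, however, which left 0.07 for MIOX relative to them.

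GATM, which makes the creatine precursor guanidinoacetate (chromosome 15, 45361124 to 45402327), was read at 257, 259 and 290 counts in HG-NC and at 338, 341 and 392 in HG-OE. The groups did not overlap. The log2 fold change was 0.29 (SE 0.0937, adjusted p = 0.0188), but it was 0.22 without HG-OE replicate 3 and 0.26 without HG-NC replicate 2, and missed the threshold in both cases (adjusted p = 0.0577 and 0.0765), as it did with limma on log2 FPKM (adjusted p = 0.0729 to 0.166). The gluconeogenic enzymes were nearly unread. PCK1 had at most 5 counts in any library, and FBP1 had at most 2 counts outside HG-OE replicate 3, where it had 19. ACSM2A, which has near-identical copies, had at most 2 counts.

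The 3 endocytosis genes tested gave no call in either direction, where 51.8% of all genes were called. DAB2, the clathrin adaptor for megalin, was read at 37, 40.2 and 38.2 CPM in HG-NC and at 33.9, 31.8 and 40.8 CPM in HG-OE. HG-OE replicates 1 and 2 lay below all HG-NC libraries and replicate 3 above them. The log2 fold change was -0.12 (adjusted p = 0.24), and without HG-OE replicate 3 it was -0.23 and passed (adjusted p = 0.00179). AMN, the partner that brings cubilin to the membrane, was read at 109, 149 and 136 counts against 150, 128 and 131 (log2 fold change -0.06, adjusted p = 0.733). CUBN itself had 14, 13 and 16 counts against 14, 14 and 10 (adjusted p = 0.505). LRP2 had 17 counts in HG-OE replicate 3 and none in the other 5 libraries.

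**Figure D3:**
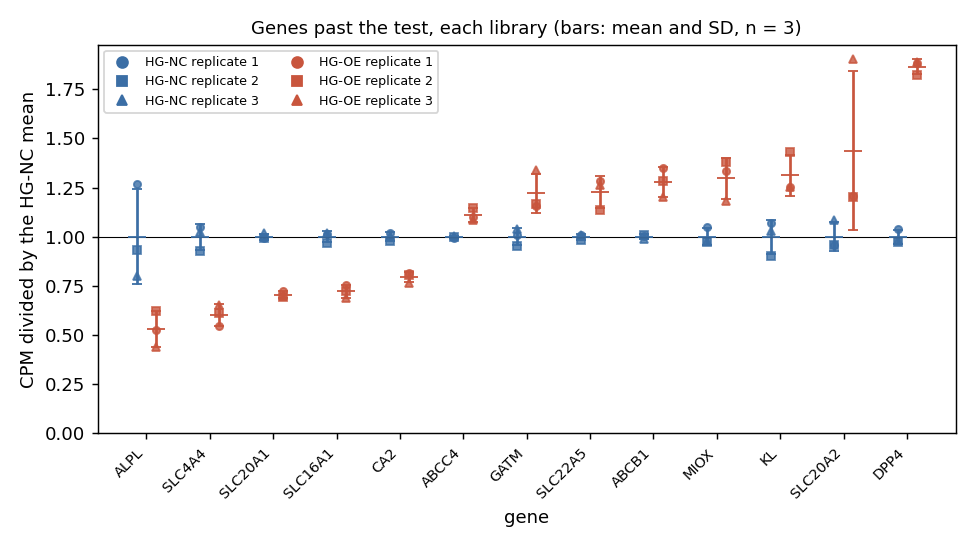
CPM in each library divided by the mean of HG-NC, for the 13 members past the test, with the mean and SD of each group (n = 3 libraries). DPP4 stands at 1.87 times HG-NC with tightly placed libraries, whereas the SLC20A2 bar is wide because HG-OE replicate 3 (33 CPM) lies above replicates 1 and 2 (20.9 and 20.8 CPM).

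HNF4A, the transcription factor of the list (chromosome 20, 44355699 to 44432845), had 0 counts in all HG-NC libraries and in HG-OE replicates 1 and 2, and 323 counts in HG-OE replicate 3. It was not alone in this. In HG-OE replicate 3, 30 members had at least 10 counts. Of these, 8 (26.7%) were over 1.5 times as high, in CPM, as in both other HG-OE libraries. Among all 17837 genes with at least 10 counts there, 1365 (7.65%) were. The limit was chosen after the values were seen. LRP2, SLC47A1, ANPEP, FBP1 and HNF4A reached 10 counts in this library alone, so the number of such members was partly fixed by the limit. The 8 were LRP2, SLC34A2, SLC20A2, SLC47A1, ABCC2, ANPEP, FBP1 and HNF4A. ANPEP was 26.8 times, FBP1 9.41 times, ABCC2 2.21 times, SLC34A2 1.85 times and SLC20A2 1.58 times the higher of the other two.

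Many markers of other cell types were high in the same library, though not all. Of the 24 hepatocyte markers, HG-OE replicate 3 held 23 at 10 counts or more, where replicates 1 and 2 held 6 apiece and HG-NC 6, 7 and 17, and none was at 0 there or in HG-NC replicate 3, against 8 to 11 in the others. Without SERPINA1, which HK-2 cells expressed throughout, the hepatocyte markers summed to 518.8 CPM in HG-OE replicate 3, to 14 and 13.1 in replicates 1 and 2, and to 15.7, 15.6 and 29.9 in HG-NC. ALB, serum albumin, had 4359 counts in HG-OE replicate 3, 78 in HG-NC replicate 3 and at most 4 in the other 4 libraries. Some markers of this list were not raised. CPS1 had 131 counts in HG-OE replicate 3 and 225 to 274 in HG-NC. HP had 33 there and 34 in HG-NC replicate 3, and TM4SF4 had 58 there and 73 in HG-OE replicate 2. The 12 squamous epithelial markers summed to 80 CPM in HG-OE replicate 3 and 11.3 to 15.1 in the others, and KRT5 had 334 counts there and 0 elsewhere. The 10 intestinal markers summed to 38.5 CPM against 1.4 to 2.27, but 939 of the 1127 counts there were of VIL1. CDX2 had 40 counts there and 0 elsewhere. CDX1 and SI had 0 there, and CDH17 had 40 beside 31 and 35 in HG-OE replicates 1 and 2. The 11 markers of endothelium, fibroblasts and leukocytes summed to 29.3 CPM in HG-OE replicate 3 and 22.2 to 29.3 in the others. HNF4A, ANPEP, FBP1, ABCC2 and SLC47A1 are also known from liver, and the part of other cell types in the counts of these members was not tested.

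**Figure D4:**
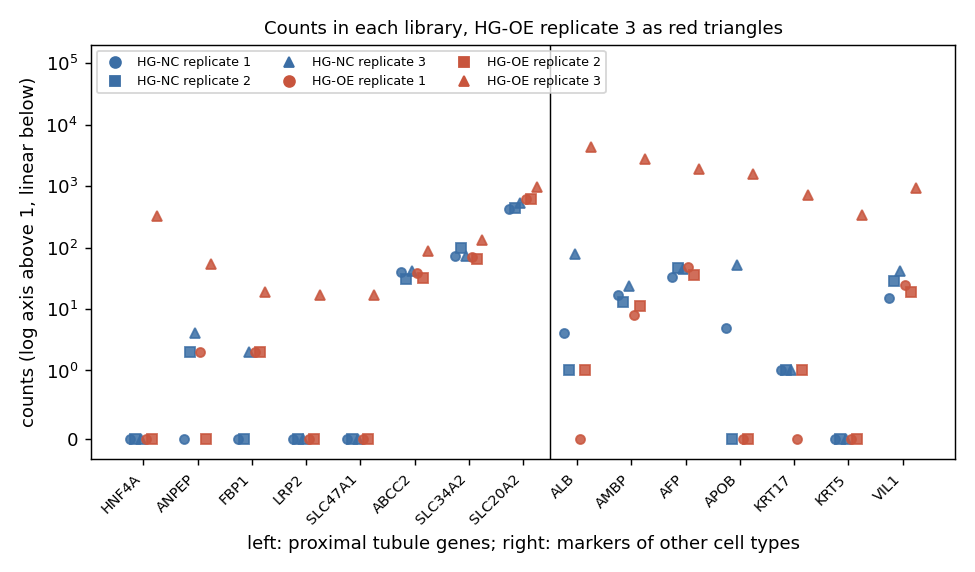
Counts in each of the 6 libraries, on an axis that is logarithmic above 1 and linear below, for the 8 members high in HG-OE replicate 3 (left) and for 7 markers of hepatocytes, squamous and intestinal epithelium (right). HG-OE replicate 3, the red triangle, has 323 counts of HNF4A and 4359 of ALB, and is the highest library for each gene drawn. The markers drawn are among those high in this library, and some other markers of the lists were not raised.

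Beside the members, 94 other proximal tubule genes were read as a wider list. In HG-NC, 32 of them were expressed, 19 low and 40 near 0, and 3 had no row. Of the 56 tested, 20 (35.7%) were higher and 11 (19.6%) lower, beside 25.9% of all genes in each direction. Their median log2 fold change was 0.26, beside 0.01. Without HG-OE replicate 3, 21 were higher and 15 lower, beside 26.7% and 27.2% of the genes then tested. PC, pyruvate carboxylase, turned from 0.72 on the log2 scale (adjusted p = 0.211) to -0.50 (adjusted p = 8.75e-04), with 179, 195 and 215 counts in HG-NC and 157, 144 and 753 in HG-OE. A 2-fold change was passed by 3 genes upward (5.36%) and 1 downward (1.79%), beside 3.69% and 2.13% of all genes. MME, the neutral endopeptidase neprilysin of the brush border, was read at 91, 140 and 113 counts in HG-NC and at 236, 258 and 261 in HG-OE. As for DPP4, the other peptidase that rose, its groups were well apart (log2 fold change 1.02, SE 0.138, adjusted p = 3.49e-05). Without HG-OE replicate 3 the value was 0.99, past the test but under 2-fold.

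The other genes past 2-fold were transporters. SLC6A20, a proline carrier, had 6, 8 and 9 counts against 33, 23 and 30 (log2 fold change 1.77, adjusted p = 6.00e-04), and SLC51B, a subunit of the basolateral steroid transporter, had 7, 11 and 8 against 38, 32 and 31 (log2 fold change 1.82, adjusted p = 2.77e-04). SLC16A4, a relative of SLC16A1, had 300, 312 and 331 counts against 174, 164 and 166 and fell by 1.02 on the log2 scale (SE 0.0974, adjusted p = 1.37e-06). The family did not share this direction, since SLC16A9, a further relative named after its values were seen, had 114, 107 and 117 counts against 189, 189 and 217 (log2 fold change 0.69, adjusted p = 3.68e-04). Chosen after their values were seen, the scaffold gene PDZK1, whose product binds brush border transporters as NHERF1 does, had 221, 180 and 201 counts against 375, 396 and 400 (log2 fold change 0.84, adjusted p = 2.12e-05), and SLC5A2, the glucose cotransporter SGLT2, was low at 0.763 FPKM in HG-NC and 0.703 FPKM in HG-OE (adjusted p = 0.626).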

How the data were processed

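RNA-seq of HK-2 cells was analysed in 6 libraries, grouped by their labels. After trimming, the authors aligned reads to GRCh38 by HISAT2. The deposited values are whole, unnormalized counts of read pairs that map uniquely to each gene, and FPKM rounded to 2 decimals. The counter, the annotation and whether ComBat_seq entered these values are not given in the sources used here. The library preparation was directional, and whether counting used the strand is not given either.

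The count analysis used edgeR 4.0.16 in R 4.3.3: TMM normalization, filterByExpr (17142 of 31831 genes kept) and the quasi-likelihood test with group as the only term, with Benjamini-Hochberg adjustment over all genes tested. The call threshold was an adjusted p of 0.05. Counts per library were scaled to CPM by TMM, also for the sums over marker lists. FPKM served to compare levels between genes. Standard errors are those of the edgeR fit, and SDs are over 3 libraries. Well-counted neighbours are genes with a mean of at least 100 counts within 10 Mb. Positions and exon overlaps come from GENCODE release 44 on GRCh38. The steps were tested on simulated data.

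The members and lists were chosen with earlier results of these data known. All 41 members were named, and from the wider list the genes past 2-fold; PDZK1, SLC5A2, PC and SLC16A9 were picked with their values in view. Promoter motifs and some genes of the lists are not reported here. Alternatives tried were DESeq2 1.42.0 (Wald test, and its size factors in edgeR), other low-count filters, limma 3.58.1 with a trend on log2 FPKM, a replicate block, each library left out, and removal of the neighbours' median.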

Additional observations from a re-analysis of the deposited data

How the results depend on the processing

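Of 385 values of a member under an alternative, 352 were counted as the same as in the main analysis. These included changes of sign in members not past the test, such as ABCC2 without HG-OE replicate 3 (log2 fold change 0.36 to -0.20). CA2, SLC4A4, SLC20A1, KL, SLC16A1, ABCB1, DPP4 and MIOX stayed past the test in all 14 settings that gave a p-value. The count of members higher in HG-OE, 8, was 5 with limma on log2(FPKM + 0.1), on log2(FPKM + 1) and on log2(FPKM + 1) without a filter, and 13 without a low-count filter, which added LRP2, SLC47A1, ANPEP, FBP1 and HNF4A, all with counts mainly in HG-OE replicate 3; these 5 then also passed 2-fold, against 0. Leaving out each library in turn gave 6 to 8 members higher and 4 to 7 lower, with 0 to 1 lower by 2-fold (ALPL, without HG-NC replicate 3 or HG-OE replicate 2). Removing the neighbours' median left 1 member past 2-fold upward (DPP4), reversed SLC22A5 to -0.0022 and moved HNRNPF to 0.39. In the wider list, the 3 genes higher by 2-fold became 1 with at least 10 counts in every library, 1 with limma on log2(FPKM + 0.1), 0 with limma on log2(FPKM + 1) with or without the filter, 10 without a low-count filter and 3 to 6 with a library left out (6 without HG-NC replicate 2 or HG-OE replicate 2). The 1 gene lower by 2-fold became 0 with each limma setting and with the neighbours' median removed. By at least 10 counts in every HG-NC library, 25 members counted as expressed in place of 15. SLC22A5 and GATM lost their calls in all 3 limma settings, SLC20A2 in those and in the DESeq2 Wald test, and ALPL with limma on log2(FPKM + 1) without the filter (adjusted p = 0.0516).

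The replicate block gave the same counts of members, 8 higher and 5 lower. Correlations of the deviations of same-numbered libraries were -0.0273, 0.0301 and -0.000993, so the libraries share only a number. Members with under 100 counts are limited by depth.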
